A study of Oryctolagus cuniculus with 10 samples.

Results

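The sites described are the 16503 positions of the rabbit genome at which every 1 of the 10 liver RNA libraries carried a base other than the reference base, and which the authors' own filter accepted in all libraries. They were chosen by the calls themselves, so the fact that all libraries were changed there is the choice and not a result. The full deposited table holds 570218 sites, of which 145208 had reads in all 10 libraries. The members are thus 2.89% of all sites and 11.4% of those with reads in all libraries.

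The libraries came from the livers of male wildtype New Zealand white rabbits. The 5 control rabbits were fed a diet with 1% sunflower oil for 4 weeks, and the other 5 received the same diet with 0.5% squalene. All 10 animals thus shared the breed, the sex and the sunflower oil. Polyadenylated RNA was sequenced, and the clean reads per library lay between 45.3 and 46.1 M, with a median of 45.9 M. The library numbers in the site table match no sample label, so a library is named by its diet and its own number.

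A single nucleotide change is a transition when a purine (A or G) takes the place of the other purine, or a pyrimidine (C or T) that of the other pyrimidine. All other changes are transversions. Transitions are more frequent than transversions in animal genomes, and RNA reads show them only where a gene is expressed. A reference genome gives a single base for each position. The table gives the alternative base of a library but not whether the reference base was read beside it, so a rabbit with both bases cannot be told from a rabbit with the alternative alone. Because reads come from RNA, a change in the gene and a change made in the transcript cannot be told apart either.

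Many sites lay just outside the choice. The reference base was kept in a single library at 11925 sites, and 1491 further sites were changed in 9 libraries with no reads in the other. A further 2080 sites were changed in all 10 libraries and are not among the accepted ones, so the members make up 88.8% of the 18583 sites changed everywhere. The library that alone kept the reference base was a control library at 6283 of the 11925 sites and a squalene library at 5642. By control library this number was 975 for library 6, 1657 for 10, 908 for 14, 1450 for 18 and 1293 for 21. By squalene library it was 966 for library 8, 410 for 12, 1693 for 16, 1236 for 20 and 1337 for 24. Squalene library 12 thus kept the reference base alone least often, and the ranges of the diets overlapped. A site where another library also kept the reference base is not counted, so these numbers do not rank libraries by likeness to the reference. Library 12 was changed at 73066 of the sites with reads in all libraries, below the median of 76004.

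Where all libraries had reads, single libraries were changed at 65146 to 78890 positions, with a median of 76004. The lowest number belonged to squalene library 16. The members made up 20.9% to 25.3% of these changes, so in each library most of the changed positions lay outside them.

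Transitions made up 12467 of the members and transversions 4036, or 75.5% and 24.5%. The exact (Clopper-Pearson) 95% interval of the transition share was 74.9% to 76.2%. All such intervals cover counting error only and treat sites as independent, although neighbouring sites are inherited together. The ratio of transitions to transversions was 3.09. Taken without direction, C-T changes were the largest class with 6316 members (38.3%), followed by A-G changes with 6151 (37.3%). Among the transversions, C-G changes came first with 1326 members (8.03%). A-C changes numbered 1047 (6.34%), G-T changes 1021 (6.19%) and A-T changes 642 (3.89%). The A-C and G-T classes, which are the same change read on opposite strands, differed by less than their counting intervals (5.98% to 6.73% and 5.82% to 6.57%).

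With the direction kept, the members were lopsided. The reference had T and the libraries C at 3607 members, and A and G at 3505. The opposite transitions were fewer, at 2709 for C to T and 2646 for G to A. The same held among transversions between these bases: A to C was seen at 580 members and C to A at 467, and T to G at 566 and G to T at 455. The other changes numbered 655 for C to G, 671 for G to C, 335 for A to T and 307 for T to A. C to G and G to C are the same change read on opposite strands, as are A to T and T to A. Their near equality is thus no contrast to the gap above. T to C and A to G are likewise the same change on opposite strands, as are A to C and T to G, so their counts are not separate observations.

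A and T pair by fewer hydrogen bonds than C and G, and are called weak and strong bases. Weak-to-strong changes numbered 8258 among the members and strong-to-weak changes 6277. The weak-to-strong share of these changes was 56.8% (95% interval 56.0% to 57.6%). The share was lower at sites changed in fewer libraries, with some breaks in the order. At sites changed in 9 libraries it was 54.4%, in 8 it was 51.1%, in 7 it was 49.2%, in 6 it was 49.4%, in 5 it was 46.9% and in 2 it was 44.8%. Sites changed in a single library were at 47.4%, above those changed in 2 to 5 libraries. The 2080 sites changed in all libraries but absent from the accepted ones lay above the members, at 63.1% (60.9% to 65.3%). Why they are absent was not tested. A reference base of A or T was found at 53.9% of the members and at 46.8% of the other sites with reads in all libraries.

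**Figure D1:**
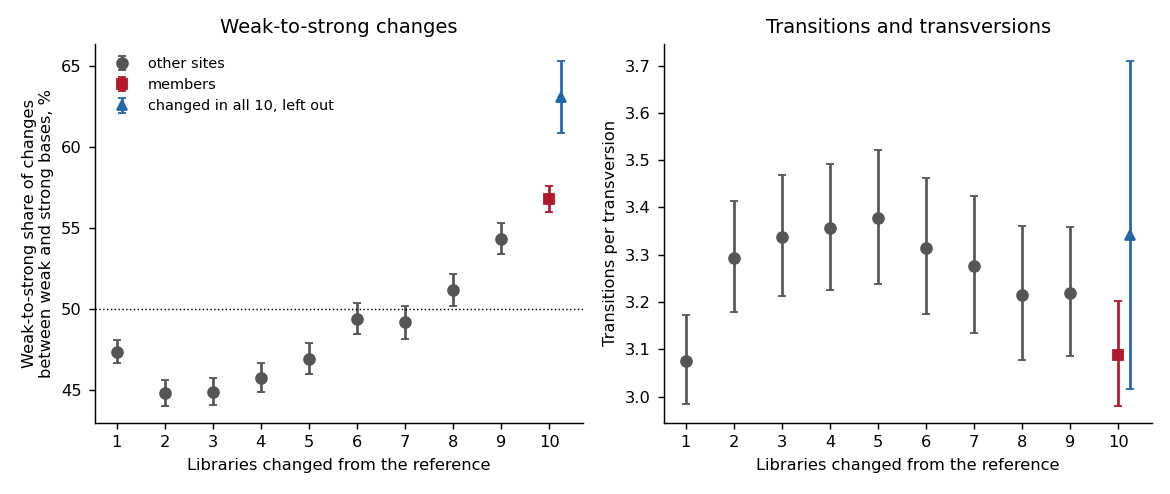
Weak-to-strong share in percent (left) and transitions per transversion (right) against the number of libraries changed from the reference, over sites with reads in all 10 libraries, with exact 95% binomial intervals. The weak-to-strong share runs from 44.8% at 2 changed libraries to 56.8% in the members (square), with the sites changed in all libraries but not accepted (triangle, named left out) at 63.1%, and the ratio is 3.09 in the members against 3.22 at 9 changed libraries and 3.08 at 1.

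The base composition of the changes was not used in the choice of the sites, so the members were compared with the other changed sites of the same library that had reads in all libraries. The choice did require all libraries to differ from the reference base, and the direction of a change is read from that base. Which base is older is unknown. Since the weak-to-strong share varied with the number of changed libraries, its difference is not separate from the choice. The difference was tested by a two-sided exact permutation test that flips the sign of the difference in each library, over 10 libraries. Its smallest p is 0.00195. The members are the same positions in every library and their bases barely vary (SD 0.00742 percentage points for the weak-to-strong share). The test therefore shows how steady the difference was over the libraries, and not how it would vary over other sites.

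At the other changed sites, the weak-to-strong share in the control libraries was 49.3% in library 6, 49.9% in library 10, 49.8% in library 14, 49.7% in library 18 and 50.1% in library 21. In the squalene libraries it was 49.6% in library 8, 49.9% in library 12, 49.7% in library 16, 49.7% in library 20 and 49.5% in library 24. The members stood at 56.8% in every library, above all of these, and the diets overlapped. The share was higher in the members by 7.08 ± 0.219 percentage points (SD, n = 10 libraries), in 10 of 10 libraries (exact permutation test, p = 0.00195). Against all other changed sites of the library, also those without reads in some libraries, the difference was 4.17 points (exact permutation test, p = 0.00195). This comparison was added after the data had been seen. The difference was 7.05 ± 0.285 points in the control libraries and 7.12 ± 0.151 in the squalene libraries (SD, n = 5 each).

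The ratio of transitions to transversions was lower in the members than at the other changed sites with reads in all libraries. In the control libraries the other sites gave 3.26 in library 6, 3.26 in library 10, 3.28 in library 14, 3.31 in library 18 and 3.31 in library 21. In the squalene libraries they gave 3.28 in library 8, 3.28 in library 12, 3.22 in library 16, 3.30 in library 20 and 3.28 in library 24. Every value lay above the members' 3.09. The difference was -0.189 ± 0.0251 (SD, n = 10), with members lower in 10 of 10 libraries (exact permutation test, p = 0.00195). This direction held only against sites with reads in all libraries. Against all other changed sites of the library the difference was 0.0144 (exact permutation test, p = 0.963). Nor was a low ratio particular to the members, since sites changed in a single library had 3.08 (95% interval 2.98 to 3.17), while the 2080 sites changed in all libraries but not accepted had 3.34 (3.02 to 3.71).

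Of the 6 classes, A-G changes made up less of the members than of the other changed sites, with a difference of -1.16 ± 0.119 percentage points (SD, n = 10; exact permutation test, Benjamini-Hochberg adjusted p = 0.00234 over the 6 classes). C-G changes made up more of the members, by 0.747 ± 0.0794 points (SD, n = 10; exact permutation test, adjusted p = 0.00234). Both differences had the same sign in 10 of 10 libraries. A-C changes were higher by 0.256 points and G-T changes by 0.230 in 10 of 10 libraries, and A-T changes were lower by 0.151 points in 10 of 10 (adjusted p = 0.00234 for each, exact permutation test). C-T changes differed by 0.0753 points, higher in 7 of 10 libraries, and did not pass (exact permutation test, adjusted p = 0.0625). On the reference strand, A-G and C-T are the same change read on opposite strands, as are A-C and G-T. A difference in A-G without one in C-T is thus not read as a property of that change. Several of these values depended on the sites compared with. Against all other changed sites of the library, the A-C difference no longer passed, at 0.0435 points (exact permutation test, p = 0.559), and the G-T difference turned to -0.136 points (exact permutation test, p = 0.0215). The C-T difference then passed, at 0.647 points, and the A-T difference was -0.798 points (exact permutation test, unadjusted p = 0.00195 for both). The A-G difference was -0.539 points (exact permutation test, p = 0.0176) and the C-G difference 0.783 points (exact permutation test, p = 0.00195).

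**Figure D2:**
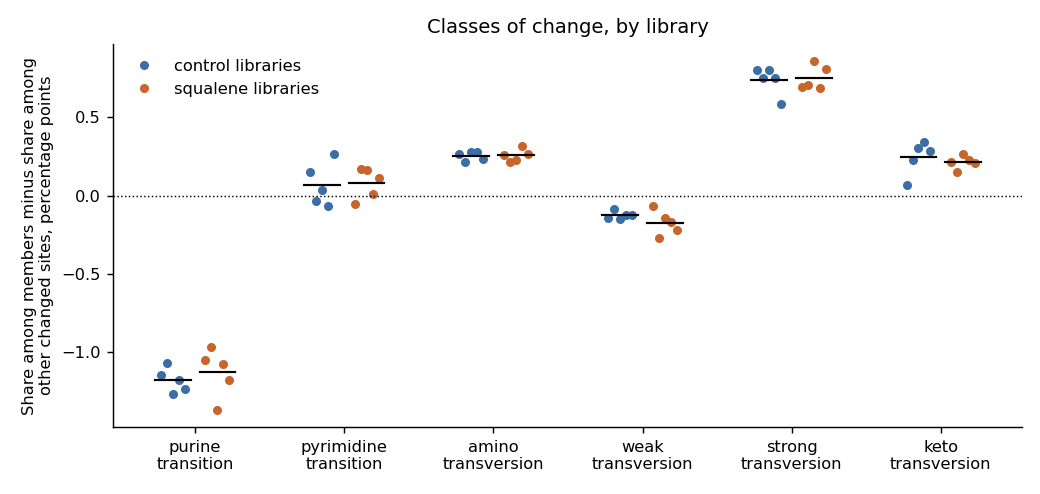
Share of each class among the members minus its share among the other changed sites with reads in all libraries, in percentage points, for each library (points) with the mean of each diet (lines). The classes are A-G (purine transition), C-T (pyrimidine transition), A-C (amino transversion), A-T (weak transversion), C-G (strong transversion) and G-T (keto transversion). The purine transition lies at -1.16 points on average and the strong transversion at 0.747. The purine and pyrimidine transitions are the same change read on opposite strands, as are the amino and keto transversions.

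At 16453 of the members all libraries carried 1 and the same alternative base. The other 50 members, or 0.303% (95% interval 0.225% to 0.399%), showed 2 alternative bases among the 10 rabbits, and none showed 3. Such a site has 3 bases if the reference is counted. At 40 of the 50 the first base listed differed between libraries, and at 40 at least 1 library listed both alternatives at once. Of all 165030 calls at the members, 123 listed 2 alternative bases, and in none of these was the reference base 1 of them. At 30 of the 50 sites 1 alternative was a transition, and at the rest both were transversions. By comparison, 46 of the sites changed in 9 libraries (0.386%), 22 of the sites changed in all libraries but not accepted (1.06%) and 216 of the sites changed in fewer than 10 libraries (0.171%) had more than 1 alternative base.

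The 10 sites at which the libraries were most evenly divided by the base listed first are shown next, written with the chromosome and the position counted from 1 in the assembly OryCun2.0. At chromosome 4, position 37954339, the reference was G. Libraries 6 and 18 of the control diet had C and libraries 10, 14 and 21 had A. Libraries 8 and 20 of the squalene diet had C and libraries 12, 16 and 24 had A. The 2 bases were thus split alike in both diets, with no library listing both. At chromosome 13, position 17029642, the reference was also G. Here T was carried by control libraries 6 and 14 and squalene libraries 12 and 16, and C by the other 6 libraries, again without a library that listed both.

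Other sites had libraries with both bases. At chromosome 14, position 126796747, with the reference G, A alone was listed in squalene libraries 12 and 16. Both A and C were listed in control libraries 14 and 21 and squalene library 20, and C alone in the other 5. At chromosome 9, position 67425153, with the reference G, T was present in 10 of 10 libraries and C in 7 of them. At chromosome 15, position 47487007, with the reference A, G was present in 10 libraries and C in 6. At chromosome 16, position 65447078, with the reference C, G was present in 9 libraries and A in 7, and both were listed in 2 control and 4 squalene libraries. At chromosome 2, position 27116444, with the reference C, G was present in 9 libraries and A in 4. At chromosome 7, position 13615943, with the reference T, C was present in 8 libraries and A in 4.

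The remaining 2 of these 10 sites lay 2 bases apart, at positions 892944 and 892946 of 1 unplaced scaffold. At the first, with the reference A, 9 libraries carried T and 5 carried G. At the second, with the reference C, 9 carried G and 5 carried T. In each library the bases went together. Squalene library 24 had G at the first and T at the second, the 4 libraries that listed both bases at 1 of them (squalene 8 and control 6, 18 and 21) listed both at the other, and the other 5 had T and G. This was the only pair of such sites within 10 bases of each other. With every listed base counted, other sites were at least as even. At chromosome 8, position 32611969, with the reference G, C was present in 7 libraries and T in 6. At chromosome 19, position 7537815, with the reference C, A was present in 9 and G in 10. Both were chosen after their values were seen.

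The base that each library listed first was compared with the first base of most libraries, so a second base in the same library was not counted here. The number of members at which this first base was not the most common one was 12 in control library 6, 14 in library 10, 6 in library 14, 10 in library 18 and 3 in library 21. In the squalene libraries it was 12 in library 8, 11 in library 12, 7 in library 16, 9 in library 20 and 11 in library 24. This number depends on the order of listing. At chromosome 15, position 47487007, G was present in 10 libraries, yet the libraries with G alone were counted, because C was listed first in most. The groups overlapped, with 9 ± 4.47 for control and 10 ± 2.0 for squalene libraries (SD, n = 5 each). The difference of 1 lay within the spread over libraries (exact permutation test, two-sided, p = 0.738). Without control library 21 it became -0.50, and without control library 10 it was 2.25. The number of members with 2 alternative bases was 14, 11, 12, 13 and 17 in control libraries 6, 10, 14, 18 and 21. It was 16, 12, 9, 11 and 8 in squalene libraries 8, 12, 16, 20 and 24. The means were 13.4 ± 2.30 and 11.2 ± 3.11 (SD, n = 5 each), and the difference of -2.20 did not pass (exact permutation test, two-sided, p = 0.286). Without squalene library 8 it was -3.40 (exact permutation test, p = 0.0556), without control library 21 it was -1.30 and without squalene library 24 it was -1.40. The smallest p of 5 against 5 is 0.00794, and nothing in the labels pairs the rabbits. Squalene libraries 12 and 16 listed the same bases at each of the 10 most evenly divided sites. They differed elsewhere, since library 12 alone kept the reference base at 410 sites and library 16 alone at 1693. Whether they are separate replicates was not tested.

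**Figure D3:**
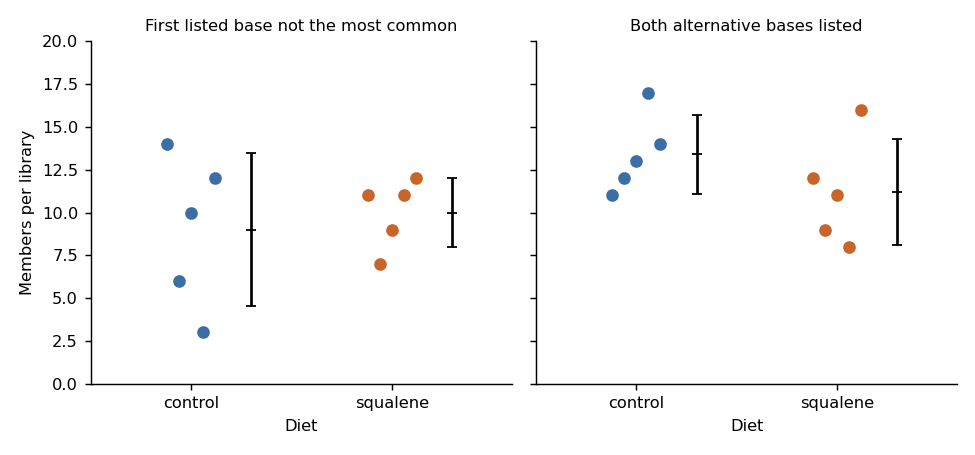
Number of members per library whose first listed base is not the one listed first by most libraries (left) and with both alternative bases listed (right), by diet. Points are libraries, and the bar beside them is the mean ± SD (n = 5). The control libraries span 3 to 14 on the left and 11 to 17 on the right, and the squalene libraries 7 to 12 and 8 to 16.

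The site table names no gene, and its sequence column gives chromosomes and scaffolds. The members lay on 437 of the 789 sequences that had a site with reads in all libraries. Chromosomes 1 to 21 and X held 11745 members, 414 unplaced scaffolds held 4756 (28.8%), and the mitochondrial genome held 2. Chromosome 13 had the most, with 1338 members, followed by chromosome 1 with 1082, chromosome 12 with 995 and chromosome 14 with 817. These numbers follow the number of sites, so they are also given as a percent of the sites with reads in all libraries. That percent was 11.5% over the placed chromosomes and 11.1% over the unplaced scaffolds.

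The percent was highest on chromosome 14, at 15.5% (95% interval 14.5% to 16.5%), and lowest on chromosome 4, at 7.14% (6.41% to 7.92%). Chromosomes 3 and 13 followed chromosome 14, at 14.4% and 14%. At the low end, chromosome 9 had 8.22% and chromosome 18 had 8.71%. The X chromosome, of which a male carries a single copy, had 133 members among 981 sites, or 13.6% (11.5% to 15.9%), within the range of the other chromosomes. The scaffolds varied more. Of the 120 scaffolds with at least 100 sites, 4 had no member, the median was 8.40% and the highest was 55.8%, with 63 members among 113 sites.

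**Figure D4:**
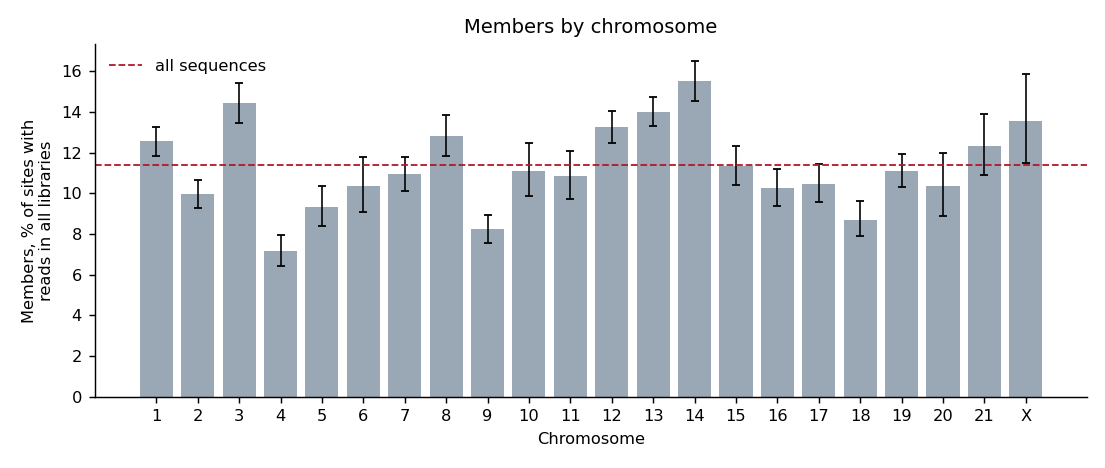
Members as a percent of the sites with reads in all libraries, for chromosomes 1 to 21 and X (bars, with exact 95% binomial intervals). The dashed line is the percent over all sequences, 11.4%. Chromosome 14 is highest at 15.5% and chromosome 4 lowest at 7.14%.

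The weak-to-strong share was higher in the members than in the other sites on all 22 chromosomes. It was lowest on chromosome 14, at 50.1% in the members against 49.6% in the others, and highest on X, at 66.4% against 58.0%. The ratio of transitions to transversions was lower in the members on 12 of the 22 chromosomes and higher on 10. It ran from 2.69 on chromosome 15 to 4.59 on chromosome 20. The lower ratio of the members as a whole was thus not shared by all chromosomes, while the direction of the weak-to-strong share was.

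The mitochondrial genome, which is inherited from the mother and present in many copies per liver cell, had 21 sites with reads in all libraries. Both of its members were transversions. At position 5870 all 10 libraries had C in place of G (G5870C, with the reference base first). At position 9429 the reference was A, and 9 libraries had T (A9429T) while control library 18 had G (A9429G). The other 19 mitochondrial sites were changed in 1 to 10 libraries, with a median of 4, and 9 of them were transitions.

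The median distance between neighbouring members on a sequence was 464 bases, against 128 bases between neighbouring sites with reads in all libraries, of which the members are a part. Of the distances between members, 57.8% were at most 1000 bases and 28.5% at most 100 bases. For a member followed by another site with reads in all libraries, this next site was itself a member in 49.1% of cases (8053 of 16406), against a share of members of 11.4% among all these sites. The percent fell with distance. It was 73.7% for a next site within 10 bases, 58.1% at 11 to 100 bases, 46.5% at 101 to 1000 bases, 37.8% at 1001 to 10000 bases and 24.1% beyond that. These are counts over sites that share sequence and inheritance, given without a test.

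Runs of consecutive sites in which every site was a member numbered 8450, of which 5040 held a single member and 604 held 5 or more. The latter contained 4380 members (26.5%). The longest run had 23 members within 5381 bases of an unplaced scaffold. On the chromosomes, the longest had 21 members and spanned chr13:36538384-36619284, and runs of 20 spanned chr1:96907570-96945694 and chr7:39656102-39777001. In windows of 1 kb, 9063 held at least 1 member, 548 at least 5 and 40 at least 10. Of the 1991 windows with at least 10 sites, 1237 (62.1%) had no member, 443 had up to 25% members, and 33 had over 75% but not all. Another 8 windows consisted of members alone. Most windows rich in sites thus lacked members, and some held little else.

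The window of this kind with the most members on a chromosome was chr2:48037001-48038000, with 13 members and no other site. Its changes are listed because they show what an altered stretch looked like in all 10 rabbits. They were G48037040A, G48037162A, C48037257T, C48037350A, T48037416G, T48037438C, A48037470G, A48037503C, A48037520G, T48037569A, T48037570C, A48037681C and A48037904G. Of these, 8 were transitions and 5 transversions, and 8 were weak-to-strong against 4 strong-to-weak. The 13 positions spanned 865 bases.

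Directly adjacent members formed 141 pairs, and no run of 3 adjacent members was found. A distance of 1 base made up 0.878% of the distances between neighbouring members, against 1.54% between neighbouring sites with reads in all libraries. Both changes were transitions in 66 pairs (46.8%), 1 was a transition and the other a transversion in 54, and both were transversions in 21. The pairs held 64 different changes of 2 bases. The most frequent was CA to TG, counted together with its reverse complement TG to CA, at 38 pairs (27.0%). The next, AC to GT, was found in 7 pairs. A single transition turns either CA or TG into CG, the dinucleotide at which cytosine is methylated in mammals. The called pair was CG in 9 of the 141 pairs and the reference pair in 4.

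Gene coordinates in the same assembly were at hand for 39 genes only, from the authors' tables of 46 splicing events. The stretches between the outermost listed exons of these genes held 265 sites with reads in all libraries, of which 39 (14.7%) were members in 9 genes. The genes named were chosen after these values were seen. DPYS held 23 of the 39 members, and outside DPYS the percent was 8%, with 16 members of 200 sites. In all, 14 members lay in listed exons, 2 in retained introns and 23 between listed exons, a part that can hold other exons that the event tables do not list. Another 14 genes had sites but no member, with 77 sites in all. Among them were ZSCAN25, with 37 sites, and LOC103351000, with 17.

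DPYS encodes dihydropyrimidinase, a liver enzyme that opens the ring of dihydrouracil and dihydrothymine in the breakdown of pyrimidines. The stretch between its outermost listed exons is chr3:119724131-119748886, on the minus strand. Members made up 23 of its 65 sites (35.4%), and each had the same base in all 10 libraries. A further 3 sites were changed in all libraries and are not among the accepted ones, 15 were changed in 9 libraries, 18 in 5 to 8, 5 in 2 to 4 and 1 in a single library. At the 15 sites, the library that kept the reference base was squalene library 12 at 6, squalene library 16 at 5, and squalene libraries 8 and 24 and control libraries 6 and 18 at 1 each. Over the 65 sites, control libraries 6, 10, 14, 18 and 21 were changed at 51, 62, 60, 55 and 65. Squalene libraries 8, 12, 16, 20 and 24 were changed at 54, 45, 39, 55 and 51. Control library 21 carried an alternative base at every site, squalene library 16 at the fewest, and the diets overlapped.

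Of the DPYS members, 4 lay in the upstream listed exon, at T119748762C, G119748778A, T119748815C and G119748816A on the plus strand, the last pair adjacent. The stretch of 141 bases that holds this exon begins the listed region. The 5 sites in the other listed exons were changed in 8 or 9 libraries and held no member. The other 19 members lay between listed exons, 14 of them from 497 to 4328 bases and 5 from 21488 to 23128 bases from the upstream end. Transitions were 20 of the 23 and transversions 3. Read on the strand of the gene, 11 were A to G, 5 C to T, 3 G to A, 2 T to A, 1 T to C and 1 A to C.

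**Figure D5:**
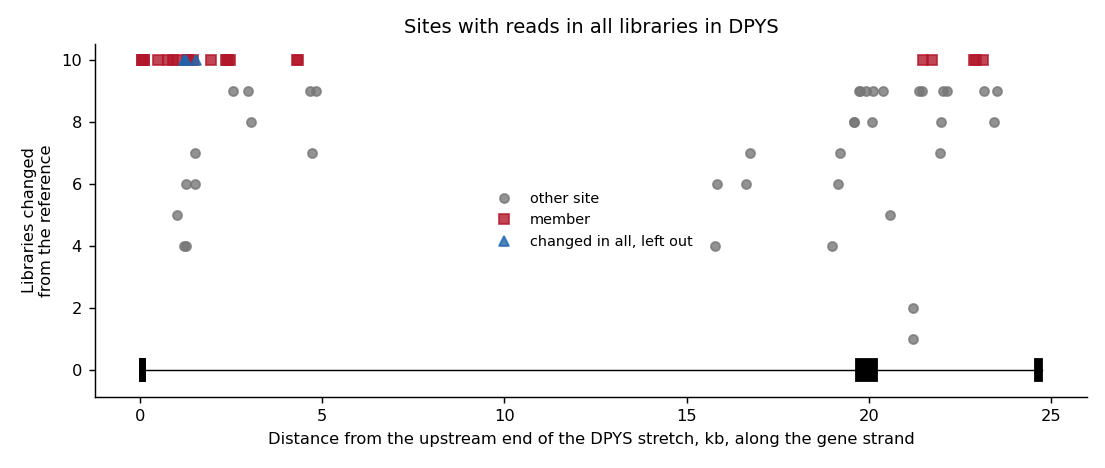
Sites with reads in all 10 libraries in DPYS by their distance in kb from the upstream end of the listed stretch, along the gene strand, and the number of libraries changed there. Squares are the 23 members, triangles the 3 sites changed in all libraries but not accepted (named left out), circles the other 39 sites and black boxes the listed exons. Members lie in 2 groups near both ends, and the sites over the middle listed exon are changed in 8 or 9 libraries.

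KIF1B, a kinesin motor that carries mitochondria and vesicle precursors along microtubules, held 5 members among 41 sites in chr13:139956036-139960042. All 5 lay in the exons on both sides of a retained intron and were transitions, namely A139956769G, G139957031A, G139957094A, G139959443A and C139959509T. WBSCR27, a putative methyltransferase gene of the Williams-Beuren region in humans, held 4 members among 40 sites on an unplaced scaffold. Of these, 3 were in listed exons. FCMR, the Fc receptor for IgM on lymphocytes, held 2 of 5 sites on chromosome 16. These were A65464990G in its retained intron and T65465299C in the exon that follows. The other genes held 1 member each. They include NCAPH2, a subunit of condensin II, with 1 of 4 sites in a listed exon, and the zinc finger gene ZNF502 with 1 of 17. LOC100343225, which the files name as a pancreatic alpha-amylase, had 1 of 11. LOC100340374, a sialic acid-binding lectin, had its single site as a member, within the retained intron.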

How the data were processed

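The authors mapped clean reads to the rabbit assembly OryCun2.0 with HISAT2 and called variants in each library with GATK, filtering unreliable sites. Versions are not given in the sources used here. Depth per site and library is unknown. The authors' deposited site tables give a position, the reference base and the base called in each library, and an asterisk where no read covered the site. The third of these tables, with sites that passed the filter in all libraries, defines the members. Each was found in the full table with the same bases. The font colours by which the authors marked accepted calls were not used here. Chromosome numbers follow the order of the chromosome sequences of OryCun2.0.

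Libraries were assigned to a diet by their column name, and each library was taken as 1 rabbit. A legend of the study calls the samples partially pooled. Squalene libraries 12 and 16 also listed the same bases at all of the 10 most evenly divided sites, and no other pair of libraries did. At other sites they differed, with the reference base kept by library 12 alone at 410 sites and by library 16 alone at 1693. Why they were alike at those 10 sites was not tested. The replicates may thus be less separate than taken here, and p-values measure the spread between libraries. The change of a site is that of the base listed first by most libraries, with ties taken in alphabetical order. Shares have exact binomial 95% intervals. Members were compared with other changed sites by an exact sign-flip permutation test over 10 libraries (1024 patterns) and diets by an exact permutation test (252 splits), both tested on simulated data. Alternatives were other sets of sites and leaving out each library. Python 3.11.15 with numpy 2.4.6, scipy 1.17.1, pandas 2.3.3 and matplotlib 3.10.9 was used.

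The members and lists were chosen with earlier results of these data known. The weak-to-strong share, spacing, windows and genes were added after the data had been seen. The planned rule named the genes with most members and members of fixed gene lists, and could not be applied, since the table names no gene. The 10 most evenly divided sites followed its remaining part, applied to sites and to the base listed first. Gene coordinates came from the authors' deposited splicing tables, whose starts count from 0 and were raised by 1. Columns with the authors' fold changes, p-values and false discovery rates were not used.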

Additional observations from a re-analysis of the deposited data

Results flagged for a closer look

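In 1 of the 26 groups of 5 libraries looked at, over 13 measures, a library stood apart from the others of its diet. This was control library 6, in which C-G changes made up 7.44% of the changed sites outside the members, while the other control libraries had 7.23% to 7.28%. Chance sets apart about 1 in 20 groups. The members themselves held 8.03% of this class in that library.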

How the results depend on the processing

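Of 107 recomputed values, 88 kept their direction and side of the threshold or stayed within their interval, and 11 site counts stayed within 1.5 times the 16503 members. Without the authors' filter, 18583 sites were changed in all libraries. When each library in turn also no longer had to be changed, 19066 to 21005 sites were. Without 1 library, the weak-to-strong difference lay between 7.04 and 7.12 points and the difference in ratio between -0.195 and -0.186 (exact permutation p = 0.00391 throughout, the smallest possible). The diet difference in first listed bases other than the most common ran from -0.50, without control library 21, to 2.25, and that in sites with 2 bases from -3.40 to -1.30 (exact permutation p from 0.0556). With all other changed sites as the comparison, the ratio difference turned to 0.0144, that of G-T changes to -0.136 points, that of A-C changes lost its call at 0.0435 and that of C-T changes gained one at 0.647. The cause was not tested. With 1 member per 10 kb, an alternative added later, the weak-to-strong share was 60.1%, and with 1 site per 10 kb throughout the difference was 10.6 points. On numbered chromosomes and X alone, A-T changes were 4.23% and C-G changes 7.52% of the members.

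No paired analysis was possible because the library numbers of the site table match no replicate number in the labels. Settings by gene (1 member per gene, members in genes only, members per gene) were not run, since the table names no gene. Read depth per call is unknown, so the share of reads with the reference base cannot be given.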
